A study of Rattus norvegicus with 5 samples.

Results

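Marker genes of microglia and other leukocytes were followed in RNA of rat retinal Müller cells, the main glial cells of that tissue, from normal and diabetic animals. The set comprises 10 listed genes outside the complement and antigen presentation systems, and all probe sets annotated with 1 of these symbols and no other were taken. For 9 of the 10 genes the annotation held such probe sets, 15 in all, out of 8740 probe sets that are no controls and 4736 genes in the series. Fcer1g, the gamma chain that carries the signal of several Fc receptors, is paired with no probe set in the annotation used and has no value here. The genes were listed with earlier results of these arrays known, so their counts are descriptions.

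Total RNA was hybridised to 5 rat RG_U34A arrays. The 3 normal arrays carried Müller cells of healthy male Sprague-Dawley rats, each from the retinas of 12 rats pooled together. The 2 diabetic arrays carried cells of male Sprague-Dawley rats 6 months after diabetes was induced with streptozotocin (written streptozotozine in the labels), a toxin of the pancreatic beta cells. These rats received small insulin doses against catabolism, and the cells again came from a pool of 12. The second diabetic array is labelled a technical replicate, so the mean of their log2 values stands for 1 pool, and the comparison asked which transcripts differ after long diabetes with 3 normal pools against 1. The sources used here do not give ages or the way the cells were separated.

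Microglia are the resident macrophages of the retina. They share with blood leukocytes the receptor phosphatase encoded by Ptprc, tetraspanin membrane proteins, Fc receptors for antibody and the Src-family kinases that act below them, while the actin-bundling protein encoded by Aif1 is the usual histological marker of microglia. Müller cells are of neuroepithelial origin and are not the usual source of these transcripts, which were listed as markers of other cells that such a preparation can hold. On such arrays of bulk RNA, a change in the number of cells of a type and a change in RNA per cell cannot be told apart.

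The promoters of some of these genes share a short sequence. PU.1 is the transcription factor that governs macrophage and B cell genes, and it binds purine-rich sites around a GGAA core. Promoters of 6 of the 10 genes, from 250 bases before to 50 bases after the start, were matched by symbol in RefSeq's GRCr8 assembly. They are those of Coro1a, Ctss, Ptprc, Cd53, Cd37 and Cd48, and no entry was matched for Aif1, Lyn, Fcer1g and Fcgr2b. The letters GAGGAAGT, searched on both strands, were found in 3 of the 6, against 2.42% of 33469 promoters of the same length. The shorter GAGGAA, which lies within the longer motif, was found in 4 of 6 promoters against 27.6% of all. TATAAA was found in 1 of 6 against 14.2%. The 3 promoters with the longer motif are shown because these letters are what they have in common. In each of them the motif lies on the opposite strand and is therefore read as ACTTCCTC, in capitals, beginning at position -17 for Ctss (chr2:185775146-185775445, plus strand), -46 for Cd53 (chr2:197087847-197088146, minus strand) and -79 for Cd37 (chr1:104860735-104861034, minus strand), counted from the start of the gene.
Ctss: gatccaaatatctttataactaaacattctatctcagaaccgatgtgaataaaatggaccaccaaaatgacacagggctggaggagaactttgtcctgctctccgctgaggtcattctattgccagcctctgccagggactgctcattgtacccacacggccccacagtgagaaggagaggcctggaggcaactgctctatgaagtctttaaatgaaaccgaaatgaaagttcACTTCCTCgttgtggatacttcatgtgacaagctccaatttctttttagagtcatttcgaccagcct
Cd53: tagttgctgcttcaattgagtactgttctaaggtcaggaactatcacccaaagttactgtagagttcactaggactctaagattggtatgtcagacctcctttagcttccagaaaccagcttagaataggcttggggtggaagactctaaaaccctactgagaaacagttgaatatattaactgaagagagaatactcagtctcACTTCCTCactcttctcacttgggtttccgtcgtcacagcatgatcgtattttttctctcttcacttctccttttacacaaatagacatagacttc
Cd37: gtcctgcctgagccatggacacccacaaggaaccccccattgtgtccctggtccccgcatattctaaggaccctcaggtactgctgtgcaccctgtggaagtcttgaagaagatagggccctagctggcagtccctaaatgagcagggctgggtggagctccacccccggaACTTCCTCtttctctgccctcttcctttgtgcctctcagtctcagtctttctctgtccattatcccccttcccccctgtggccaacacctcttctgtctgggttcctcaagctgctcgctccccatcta
A match describes letters only. The genes' own differences between the groups ran from 0.19 to 0.89 on the log2 scale for these 3 and are given with each gene, with their errors. Without the exact letters of the longer motif, the differences were 1.43 for Coro1a, 0.35 for Ptprc and -0.08 for Cd48. The promoters of these genes still hold the GGAA core. A link between the letters and the differences was not tested.

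The arrays differed in brightness, with deposited medians of 27.9 to 91.3, and were brought to equal distributions by quantile normalisation. Normalised signals below 20 were set to that floor (4.32 on the log2 scale). Actin signal from the 3' end exceeded that from the 5' end by ratios of 2.61 and 2.55 on normal array 1 and diabetic array 2 (1.46 to 1.76 elsewhere), and a high ratio marks degraded RNA; the GAPDH ratios were 1.03 to 1.35. Normal array 3 and diabetic array 2 shared a hybridisation day and a chip lot, and the record of diabetic array 1 named neither. Of the Müller cell markers, the glutamine synthetase gene Glul and Apoe were bright on every array, with mean log2 levels of 13.1 and 13.2.

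Coro1a, Cd37, Fcgr2b, Ctss and 1 of 3 probe sets of Aif1 were higher on both diabetic arrays than on any normal array, and no marker probe set was lower on both. None of them passed limma's test after adjustment over all 6118 tested probe sets. Of the 15 marker probe sets, 11 passed the filter on dim signals, covering all 9 genes. With limma 0 of these 11 had an adjusted p under 0.05, as was the case for 0% of all tested probe sets, and 1 (Coro1a) had an unadjusted p under 0.05, a mark reached by 1.60% of all, or by 1.19% counting those above normal only. Coro1a passed the filter only through its diabetic arrays: its normal mean of 4.52 lay below the cutoff of 4.68 (log2) and its diabetic mean was 5.95, so it had to differ and its p supports nothing. The other 10 had both group means above the cutoff, and 0 of them had an unadjusted p under 0.05 by limma. The difference was above 0 for 8 of the 11 and below for 3, where 48.8% of all tested probe sets lay above. Without overlap, 5 of the 11 were higher on both diabetic arrays than on every normal array, where 9.53% of all tested probe sets did so, and 0 were lower on both (7.01% of all). The margin in 4 of those 5 was small, from 0.09 to 0.41 between the lowest diabetic and the highest normal array on the log2 scale, and it was 0.76 for Coro1a. Without Coro1a 7 of 10 lay above normal and 4 of 10 did not overlap. Over the 9 genes, each by its brightest tested probe set, 7 lay above normal (49.2% of all 3623 genes tested) and the median difference was 0.43, against -0.008 over all genes tested. This count and this median include Coro1a and were not repeated without it. Aif1 enters them by the 1 of its 3 probe sets that stood apart.

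**Figure D1:**
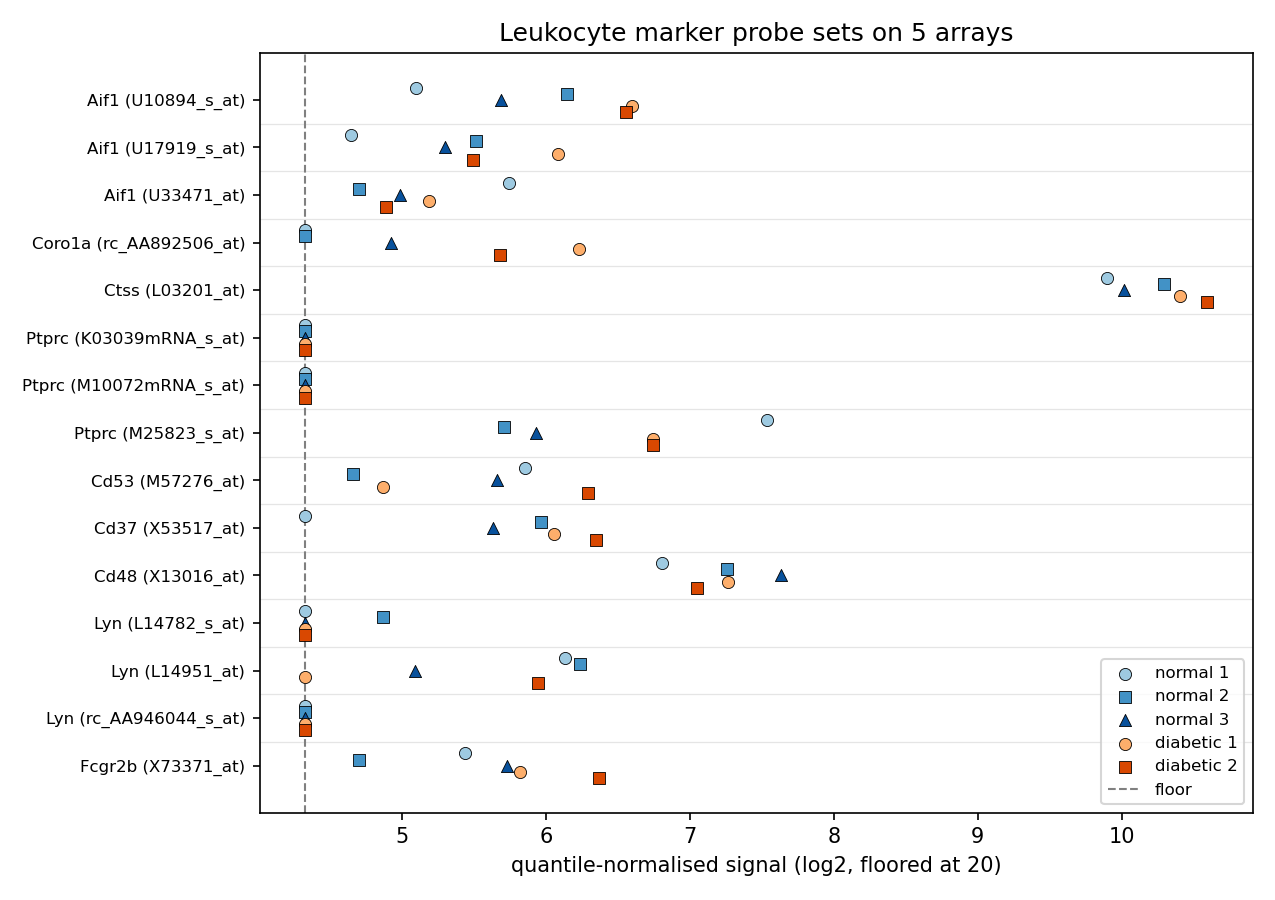
Quantile-normalised signal (log2, floored at 20, dashed line at 4.32) of the 15 marker probe sets on the 3 normal (blue) and 2 diabetic (orange) arrays, 1 point per array. Orange points lie to the right of all blue points for Coro1a, Ctss, Cd37, Fcgr2b and 1 probe set of Aif1, and 3 probe sets lie on the floor on all 5 arrays.

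Coro1a and Aif1 encode proteins of the actin cytoskeleton. The product of Coro1a, coronin 1A, binds actin in leukocytes. Its normalised signal was below the floor on normal arrays 1 and 2, 30.3 on normal array 3, 75.0 on diabetic array 1 and 51.2 on diabetic array 2. The groups did not overlap, and diabetic array 1 was the highest. On the deposited scale its values were 6.9, 4.2 and 44.1 on the normal arrays and 79.8 and 63.5 on the diabetic arrays. The log2 difference was 1.43 (SE 0.51, 95% interval 0.15 to 2.72, 3 normal pools and 1 diabetic pool), a ratio of 2.70 that depends on the floor because 2 normal arrays stood on it. It was 2.10 with a floor of 10 and 0.31 with a floor of 50, and 0.76 between the arrays that shared a day. By limma its unadjusted p was 0.0346 (adjusted p = 1), for a probe set that the diabetic arrays alone brought past the filter, or 0.0593 without normal array 1, 0.104 without normal array 2, 0.105 with the deposited values unscaled and 0.0684 with the floor of 10.

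Aif1 had 3 tested probe sets, which gave different pictures. The brightest, U10894_s_at, had normalised signals of 34.2, 70.8 and 51.5 on normal arrays 1 to 3 and of 96.5 and 93.8 on the diabetic arrays. Its diabetic values lay close together and above all normal values. The log2 difference was 0.93 (SE 0.58, 95% interval -0.51 to 2.37; limma, adjusted p = 1), a ratio of 1.91. Within the shared day it was 0.87. A second probe set, U17919_s_at, read 24.9, 45.6 and 39.3 against 67.7 and 44.9, so that diabetic array 2 fell just below normal array 2, and differed by 0.64 (SE 0.56), or by 0.34 without diabetic array 1, 0.22 with the floor of 50 and 0.19 within the shared day. The third, U33471_at, read 53.6, 25.9 and 31.6 against 36.4 and 29.6 and differed by -0.10 (SE 0.59), or by 0.22 unscaled. On this probe set normal array 1 was the highest of the 5, whereas on the other Aif1 probe sets it was the lowest. Which of these probe sets measures Aif1 best was not tested.

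Ctss encodes cathepsin S, a lysosomal cysteine protease that macrophages and microglia express strongly. Its normalised signal was 952 on normal array 1, 1259 on normal array 2, 1036 on normal array 3, 1358 on diabetic array 1 and 1548 on diabetic array 2. The diabetic arrays were above the normal ones, by 0.11 at the closest. The log2 difference was 0.43 (SE 0.26, 95% interval -0.23 to 1.09; limma, adjusted p = 1), the smallest SE of the set, and the normal pools had an SD of 0.21. It was 0.58 within the shared day and 0.25 on the 3 arrays whose actin ratio was low.

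**Figure D2:**
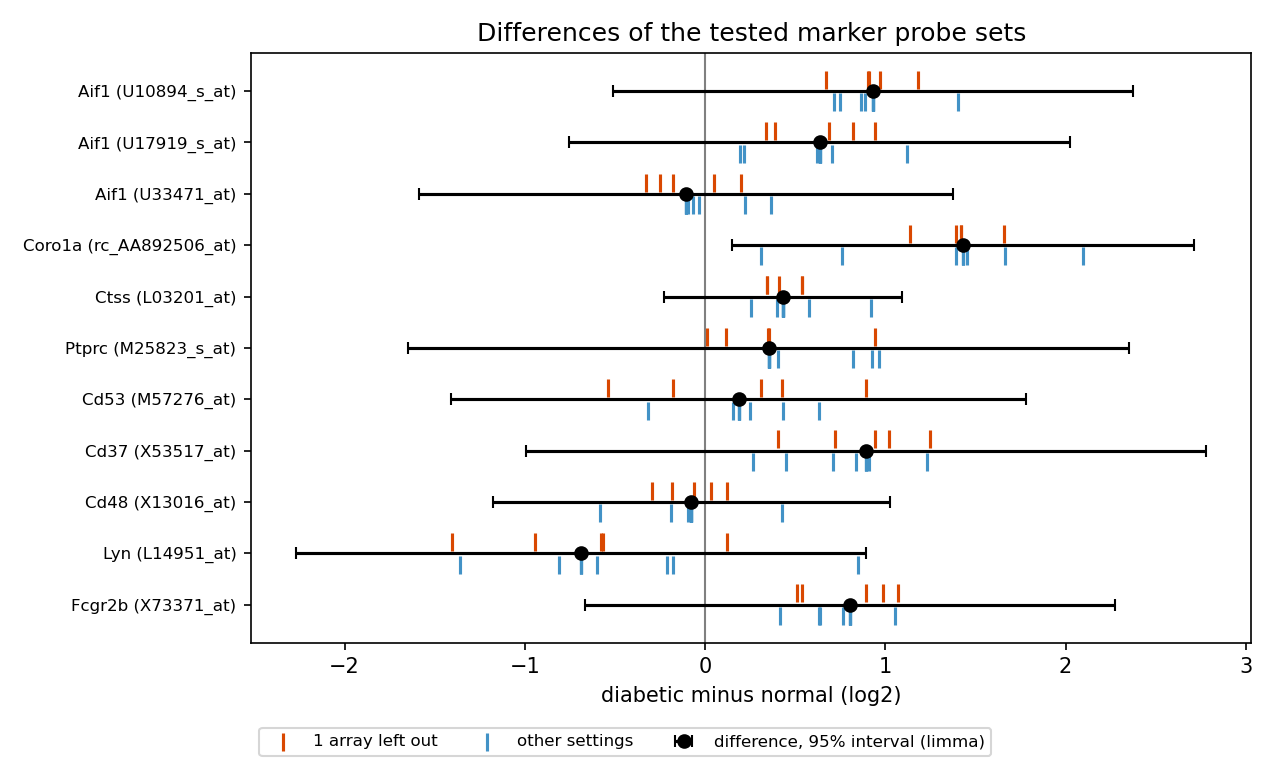
Log2 difference, diabetic minus normal, of the 11 tested marker probe sets (black points, bars 95% interval of limma), with the same difference after leaving out 1 array (orange marks) and under the other settings (blue marks). The interval lies above 0 for Coro1a and spans 0 for the other 10, and marks of Lyn, Cd53, Cd48 and 1 Aif1 probe set fall on both sides of 0.

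The Fc receptor and kinase genes pointed different ways. Fcgr2b encodes the inhibitory Fc receptor for immunoglobulin G. It had normalised signals of 43.3, 25.9 and 53.0 on the normal arrays and 56.3 and 82.4 on the diabetic arrays. Diabetic array 1 exceeded normal array 3 by only 0.09 on the log2 scale. The difference was 0.80 (SE 0.59, 95% interval -0.67 to 2.27; limma, adjusted p = 1), and it ranged from 0.51 to 1.07 with 1 array left out. Lyn encodes a Src-family kinase that phosphorylates the signalling motifs of these receptors. Its tested probe set, L14951_at, read 69.9, 75.4 and 34.1 on the normal arrays, was below the floor on diabetic array 1 and read 61.3 on diabetic array 2. The diabetic arrays were thus 1.62 apart on the log2 scale, more than the range of 1.15 among normal arrays. The log2 difference of -0.69 (SE 0.63) became 0.12 without diabetic array 1 and was 0.85 within the shared day. The other Lyn probe sets were not tested: L14782_s_at was above the floor only on normal array 2 (29.1), and rc_AA946044_s_at was at the floor on all 5 arrays.

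Ptprc encodes CD45, the phosphatase carried by nucleated cells of blood origin, which releases Src-family kinases from inhibition. Its 3 probe sets gave different pictures. K03039mRNA_s_at and M10072mRNA_s_at were at the floor on all 5 arrays, a state shared by 17.3% of all probe sets. M25823_s_at had normalised signals of 186 on normal array 1, 52.3 on normal array 2, 60.8 on normal array 3, 107 on diabetic array 1 and 107 on diabetic array 2. Normal array 1 was the highest and the remaining normal arrays were the lowest, with both diabetic arrays between them. The log2 difference was 0.35 (SE 0.80, 95% interval -1.65 to 2.35; limma, adjusted p = 1). It was 0.94 without normal array 1 and 0.01 without normal array 2.

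The tetraspanins Cd37 and Cd53 organise other membrane proteins of leukocytes, and both promoters carry the shared motif. Cd37 was below the floor on normal array 1, read 62.3 and 49.6 on normal arrays 2 and 3, and read 66.4 and 81.2 on the diabetic arrays. The groups were separated by 0.09 on the log2 scale. Its difference of 0.89 (SE 0.76, 95% interval -0.99 to 2.78; limma, adjusted p = 1) was 0.41 without normal array 1. Cd53 read 57.7, 25.3 and 50.5 on the normal arrays and 29.1 and 78.2 on the diabetic arrays, so the diabetic values enclosed 2 of the 3 normal ones. Its difference of 0.19 (SE 0.64) was -0.54 without diabetic array 2 and 0.89 without diabetic array 1. Cd48, an adhesion protein of the signalling lymphocyte family and a ligand of natural killer cell receptors, read 112, 153 and 198 on the normal arrays and 153 and 132 on the diabetic arrays. Its diabetic values lay within the normal range, with a difference of -0.08 (SE 0.44, 95% interval -1.18 to 1.03), or 0.42 with the deposited values unscaled, where the median of all tested genes was 0.48. By RefSeq's assembly Cd48, Fcgr2b, Fcer1g and Ptprc lie on 1 chromosome, as do Cd37 with Coro1a and Ctss with Cd53.

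Of the 75 single values of the 15 probe sets, 23 were at the floor: 6 on normal array 1, 4 each on normal arrays 2 and 3, 5 on diabetic array 1 and 4 on diabetic array 2. Over all probe sets that are no controls, 28.0% to 28.1% were at the floor on each array. Among the 11 tested probe sets, floor values occurred for Coro1a on normal arrays 1 and 2, for Cd37 on normal array 1 and for Lyn on diabetic array 1. Summed over the 9 genes by their brightest probe set, the floored normalised signal was 1495, 1744 and 1564 on the normal arrays and 1961 and 2235 on the diabetic arrays. Most of that sum is Ctss. Without it the sums were 542, 485 and 528 on the normal arrays and 604 and 687 on the diabetic arrays, again without overlap. Both sets of sums include Coro1a, which passed the filter only through its diabetic arrays. Coro1a was below the floor on normal arrays 1 and 2. It read 30.3 on normal array 3, and 75.0 and 51.2 on the diabetic arrays. The closest sums without Ctss were 542 on normal array 1 and 604 on diabetic array 1. Between these arrays Coro1a went from the floor to 75.0, which makes up most of that gap. The separation without Ctss therefore rests largely on Coro1a, and the sums were not repeated without that gene.

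Other genes of macrophages and microglia did not share 1 direction. Of 10 measured genes of this list 7 were tested; 4 lay above and 3 below normal, 0 had an adjusted p under 0.05 or an unadjusted p under 0.05 by limma, and the median difference was 0.04. Lyz2, the lysozyme of macrophages, differed by 0.47 (SE 0.41), with 107, 159 and 162 on the normal arrays and 210 and 179 on the diabetic arrays. P2ry12, the ADP receptor that marks resting microglia, differed by 0.51 (SE 0.39), with 104, 88.6 and 97.1 against 144 and 131. These 2 were the only genes of the list with both diabetic arrays above all normal arrays (9.83% of all tested genes). Cyba, a subunit of the phagocyte oxidase, differed by 0.77 (SE 1.01), and normal array 1 stood far below the rest (55.4 against 278 to 300). Csf2rb, the shared receptor chain for several myeloid cytokines, differed by -0.06 (SE 0.44), the lipopolysaccharide co-receptor Cd14 by 0.04 (SE 0.42) and Alox5ap, which leukotriene synthesis requires, by -0.18 (SE 0.51). Cx3cr1, the fractalkine receptor of microglia, named after its values were seen, read 81.5, 67.2 and 61.1 on the normal arrays and 66.4 and 41.0 on the diabetic arrays, a difference of -0.41 (SE 0.46). Of the defining macrophage genes that were not tested, Csf1r was at the floor on all arrays but diabetic array 2 (39.0), and Itgam was above it only on normal array 1 (26.3) and diabetic array 1 (23.6).

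Genes of signalling and adhesion found across leukocytes did not share 1 direction either. Of 10 measured 5 were tested, 2 above and 3 below normal, with a median difference of -0.06 and 0 past either threshold. The kinase gene Syk differed by 0.59 (SE 0.76), Plcg2, a phospholipase downstream of it, by 0.14 (SE 0.73), the phosphoinositide kinase gene Pik3cd by -0.27 (SE 0.43), the thromboxane synthase gene Tbxas1 by -0.06 (SE 0.53) and the chemokine receptor gene Ccr1 by -0.26 (SE 0.64). None of these had separate groups.

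**Figure D3:**
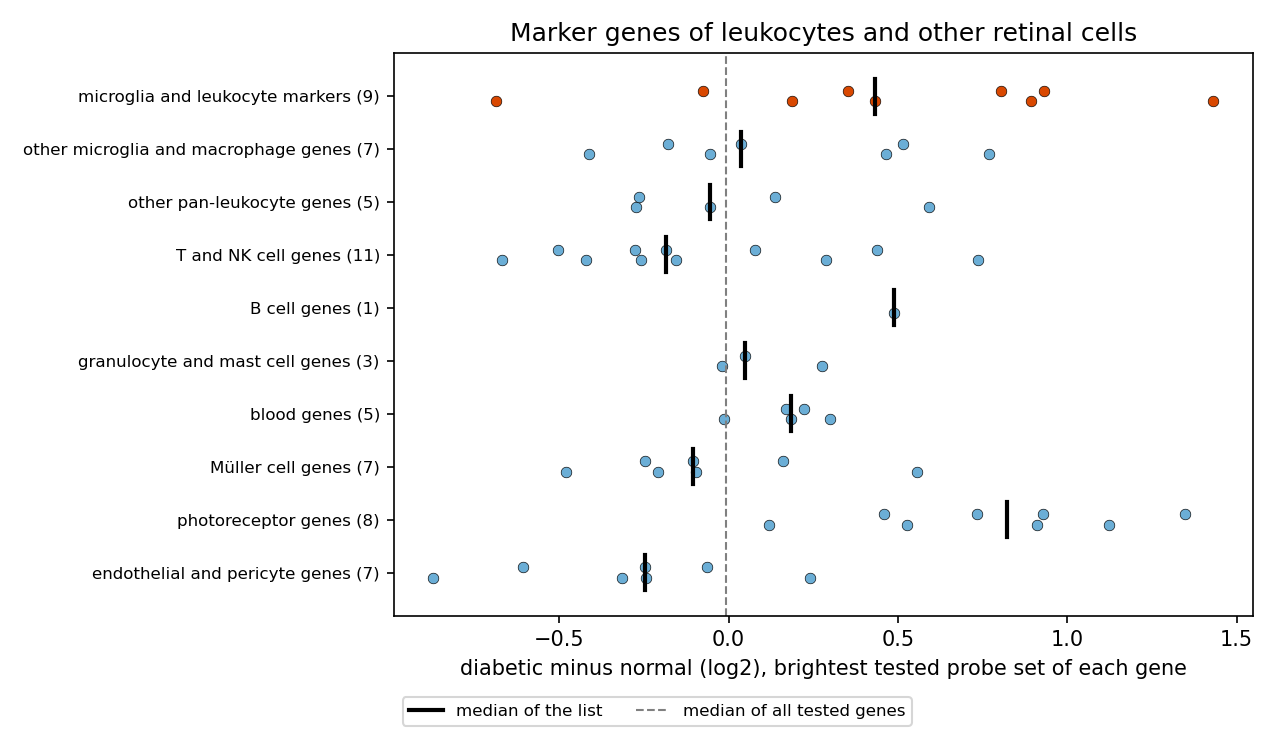
Log2 difference, diabetic minus normal, of each tested gene (brightest probe set) in the marker lists, with the number of genes in brackets, the list median (black bar) and the median of all 3623 tested genes (dashed). The microglia and leukocyte markers (orange) have a median of 0.43, the other leukocyte lists with 3 or more tested genes have medians of -0.18 to 0.05, and the photoreceptor genes have a median of 0.82. The orange points include Coro1a, which passed the filter only through its diabetic arrays.

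Markers of lymphocytes and granulocytes were in part at the floor and in part above it. Of 19 measured genes of T and natural killer cells 11 were tested, 4 above and 7 below normal (median -0.18, 0 past either threshold by limma), and 5 genes were at the floor on all 5 arrays, namely the T cell genes Cd2, Cd3d and Cd8a and the cytotoxic genes Prf1 and Faslg. Other defining T cell genes were above the floor on every array, with differences of -0.26 (SE 0.48) for Cd3g, -0.18 (SE 0.51) for Cd247, -0.16 (SE 0.58) for Cd8b and 0.74 (SE 0.75) for Cd4, which macrophages of the rat also carry. Cd4 was higher on both diabetic arrays than on any normal array (9.83% of all tested genes). It read 58.7, 58.5 and, close to the floor, 20.8 on the normal arrays and 69.7 and 68.4 on the diabetic arrays. Lck was lower on both diabetic arrays than on any normal array (7.01% of all tested genes), but narrowly, with 155 on diabetic array 2 and 163 on normal array 3. The brightest tested genes were Lck, a kinase of T cells (-0.50, SE 0.33), Ctla4, an inhibitory receptor (-0.27, SE 0.45), and Gzmb, a cytotoxic protease (0.08, SE 0.58). Of 13 measured genes of granulocytes and mast cells only 3 were tested, the mast cell proteases Tpsb2 (0.05, SE 0.51) and Tpsab1 (-0.02, SE 0.55) and the defensin gene Defa5 (0.28, SE 0.53). The neutrophil genes S100a8 and S100a9 were at the floor on 4 of the 5 arrays. For B cells the single measured gene was Cd79b, which differed by 0.49 (SE 0.67).

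Markers of other retinal cells were compared in the same way. All 8 tested photoreceptor genes lay above normal (49.2% of all tested genes), 5 of them without overlap (9.83% of all), with a median of 0.82, or 0.49 without normal array 3. Their brightest members were Sag, the rod arrestin (1.12, SE 0.59), Prph2, a structural protein of outer segments (0.53, SE 0.57), and Pdc, phosducin (0.93, SE 0.56). The summed signal of the 9 measured photoreceptor genes ran from 4303 to 10105 on the normal arrays and from 12776 to 13602 on the diabetic arrays, and 1 of them, Arr3, was at the floor on all arrays. The photoreceptor genes thus lay above normal together with the leukocyte markers, and their part in the result was not tested. Blood genes had a median of 0.18, with 4 of 5 above normal: the haemoglobin gene Hbb (0.17, SE 0.51), its relative Hbb-b1 (-0.01, SE 0.39) and Slc4a1, the anion exchanger of erythrocytes (0.18, SE 0.38), were the brightest. Their summed signal was 835 to 1399 on the normal and 1166 to 1227 on the diabetic arrays, which lay within the normal range. Müller cell genes had a median of -0.11, with 2 of 7 above normal, led by Clu, encoding the chaperone clusterin (0.56, SE 0.30), Apoe (-0.11, SE 0.26) and Glul (-0.21, SE 0.33). Their summed signal was 28579 to 37824 on the normal and 34704 to 35154 on the diabetic arrays. Of 7 tested endothelial and pericyte genes 1 lay above normal (median -0.25), and their brightest were the vascular growth factor receptors Kdr (-0.06, SE 0.27) and Flt1 (-0.25, SE 0.39) and the actin gene Acta2 (-0.32, SE 0.58). By limma none of the tested genes of these lists had an adjusted p under 0.05, and 1, the photoreceptor gene Opn1sw, had an unadjusted p under 0.05.

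**Figure D4:**
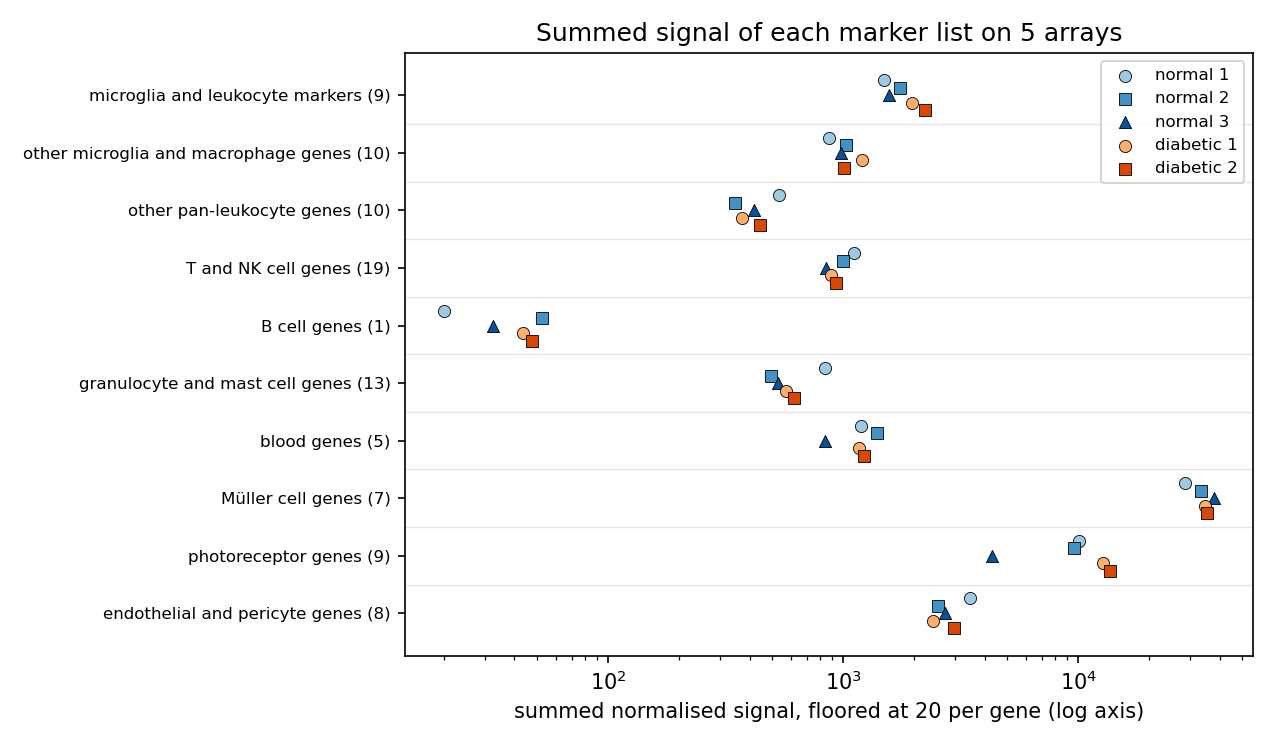
Summed normalised signal of each marker list on the 3 normal (blue) and 2 diabetic (orange) arrays, each gene by its brightest measured probe set and floored at 20, on a log axis with the number of genes in brackets. The diabetic arrays lie above all normal arrays for the microglia and leukocyte markers (1961 and 2235 against 1495 to 1744) and for the photoreceptor genes, and overlap them for every other list drawn.

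The counts over the marker probe sets were repeated with single arrays left out, an alternative added after seeing the data. Between 7 and 9 of the 11 lay above normal with any 1 array left out, where 46.7% to 53.9% of all tested probe sets did. Of the 11, 5 or 6 had every remaining diabetic array above every remaining normal array. The share of all tested probe sets that did so was then 13.8% to 23.3%. Leaving out an array can hardly lower this count, because groups that stand apart stay apart except for shifts by the renewed normalisation. It is therefore no check on the main count. On the 3 arrays whose actin ratio was low, 1 diabetic against 2 normal, 8 of the 11 were above normal (50.7% of all tested probe sets). All 8 were above without overlap, where 34.4% of all were. With fewer arrays the groups overlap less readily, so this count is no check either. With the deposited values unscaled 10 of the 11 lay above normal, as did 90.3% of all tested probe sets, and 3 did so without overlap (8.5% of all). Between normal array 3 and diabetic array 2, of the same day and lot, 9 of the 11 were higher in the diabetic array (50.8% of all tested probe sets), and the differences of the genes that stood apart were 0.76 for Coro1a, 0.87 for Aif1, 0.71 for Cd37, 0.64 for Fcgr2b and 0.58 for Ctss. These 2 arrays differed in their actin ratio. The genes that stood apart had both diabetic arrays above all normal arrays. Their differences within this pair therefore had to lie above 0 and give no separate support, and these genes are among the 9. The counts of this paragraph all include Coro1a, which passed the main filter only through its diabetic arrays, and were not repeated without it. All spread behind the p-values comes from 3 normal pools, with the diabetic pool assumed to vary like them, and an exact permutation test of 3 pools against 1 cannot give a p below 0.25.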

How the data were processed

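The deposited value table holds linear intensities, 1 for each probe set and array, from Affymetrix RG_U34A chips per the file headers; the sources used here do not say how the authors summarised and scaled them. The deposited experiment records, which are text, served only to see which arrays shared a day and lot. Values were quantile normalised over 5 arrays and floored at 20 before log2 was taken. The 59 control probe sets were then left out, as were the dimmest 30% by the average of both group means, leaving 6118 of 8740. Differences on this scale understate changes of dim genes. The number of arrays limits precision.

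The diabetic pool (mean of 2 arrays) and 3 normal pools were compared with limma 3.58.1 in R 4.3.3 (lmFit, eBayes with trend, two-sided), adjusting p-values over all 6118 by Benjamini-Hochberg at 0.05; residual degrees of freedom were 2. The step was tested on simulated data. Gene symbols came from the platform annotation, updated through gene IDs to RefSeq GRCr8; 7006 probe sets have 1 symbol. Genes in the lists are represented by their brightest tested probe set. Named genes are all members and, of other lists, the 6 (macrophage and pan-leukocyte) or 3 brightest; other genes of those lists (defining markers, genes at the floor, a single gene behind a count) were named after their values were seen. Members and lists were chosen with earlier results of these data known. Alternatives were unscaled and median-scaled values, floors of 10 and 50, no filter or 50% left out, eBayes without trend, 5 separate arrays, only the 3 arrays whose actin ratio was low, the shared-day pair and leaving out each array. Figures used matplotlib 3.10.9.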

Additional observations from a re-analysis of the deposited data

How the results depend on the processing

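Of 158 repeats of the 11 marker differences under the alternatives, 146 kept their direction and 0 passed the adjusted threshold. The 12 that reversed belonged to 4 probe sets; the cause was not tested. U33471_at of Aif1 became 0.22 unscaled, 0.20 without normal array 1, 0.049 without diabetic array 2 and 0.37 on the 3 arrays whose actin ratio was low; it ran from -0.33 to 0.20 with any 1 array left out. Cd53 became -0.18 without normal array 2, -0.54 without diabetic array 2 and -0.32 on those 3 arrays. Cd48 became 0.42 unscaled, 0.12 without normal array 3 and 0.035 without diabetic array 2 (-0.29 to 0.12 with any 1 array left out), and Lyn 0.12 without diabetic array 1 (-1.41 to 0.12) and 0.85 within the shared day. Cd53 ran from -0.54 to 0.89. Fewer than 11 marker probe sets remained with the dimmest 50% left out (4 tested, 3 above normal, 2 without overlap). Of all probe sets then tested, 49.8% lay above normal and 10.1% did so without overlap. Marker probe sets above normal without overlap numbered 3 unscaled (8.5% of all tested) and 8 on those 3 arrays (34.4% of all tested).

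Over all probe sets limma called 0, against 170 without the filter (which admits probe sets at the floor with no spread) and 13 with 5 separate arrays, and 98 and 22 had an unadjusted p under 0.05 and 0.01. With any 1 array left out it called 0. Unscaled values moved the median of all tested genes to 0.48, and with it those of the markers (0.93), other macrophage genes (0.57), T and NK cell genes (0.34), granulocyte (0.53), blood (0.69), Müller cell (0.29) and endothelial genes (0.29). On the 3 low-ratio arrays the median of the markers was 0.26 and that of T and NK cell genes -0.22. With probe sets averaged, that of macrophage genes was -0.055, and without the filter those of T and NK cell genes and of all genes were 0. With 1 array left out, medians ran from 0.36 to 0.89 for the markers, -0.076 to 0.46 for macrophage genes, -0.31 to 0.28 for pan-leukocyte genes, -0.30 to -0.15 for T and NK cell genes, 0.49 to 1.01 for photoreceptor genes, -0.23 to 0.14 for Müller cell genes, -0.44 to 0.045 for endothelial genes and -0.029 to 0.068 for all tested genes. No paired analysis was possible because the titles share only the number 2, given to a biological replicate in the normal group and to a technical replicate in the diabetic group, and the diabetic arrays are 1 pool.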
